A study of Homo sapiens with 24 samples.

Results

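10 genes for chromatin modifiers that are recurrently mutated in diffuse large B-cell lymphoma (DLBCL) were followed through CDK9 inhibition: KMT2D, KMT2C, CREBBP, EP300, EZH2, ARID1A, ARID1B, SMARCA4, TET2 and SETD2. A region of changed chromatin accessibility was assigned to one of these 10 genes when it lay within 5 kb of an annotated transcription start site (TSS) of the gene or overlapped the gene body. This rule found 25 distinct regions at 9 of the 10 genes, out of 26369 distinct regions listed anywhere in the genome. TET2 had no listed region.

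The assay was ATAC-seq, in which a transposase inserts sequencing adapters into open DNA. The cells were OCI-LY3 and VAL, both established DLBCL lines. Each was given 30 nM AZD4573, an inhibitor of the transcription kinase CDK9, for 0, 3 or 8 h, and each line and time had 4 libraries, of which 2 came from the standard method on 50000 cells and 2 from the Fast-ATAC method, labelled as using 5000 cells although the protocol text gives 50000. The deposited files are 8 lists, of regions that gained (increased) or lost (decreased) accessibility at 3 h or 8 h against 0 h in each line, and they hold positions only. The list names call the control DMSO, the vehicle, while the sample labels give it as 0 h of treatment. The lists carry no fold change, read depth, p-value or spread between the 24 libraries, no test was made, and every count below is a description. A region missing from the lists may have been unchanged, below the authors' threshold or never called as accessible, and these cannot be told apart. The 3 h and 8 h lists of a line share the same 0 h libraries, and values for them are set side by side.

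CDK9 phosphorylates RNA polymerase II and the factors that hold it near the promoter, so that paused polymerase is released into the gene body. The genes described here act on the chromatin that polymerase meets. KMT2D and KMT2C place the H3K4 monomethyl mark of enhancers, CREBBP and EP300 acetylate histones at enhancers and promoters, EZH2 places the repressive H3K27 trimethyl mark, ARID1A, ARID1B and SMARCA4 belong to the SWI/SNF remodelling complex, TET2 oxidises methylated cytosine, and SETD2 places H3K36 trimethylation behind elongating polymerase. In germinal centre B cells, the cells from which many of these lymphomas arise, KMT2D, CREBBP and EZH2 control genes that direct exit from the germinal centre.

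Accessibility increased across the TSS of 5 of the genes, and the DNA just upstream of those start sites is shown because a change there can be tied to the gene most directly. Each sequence is the 200 bp before the first annotated TSS, in hg19, read 5′ to 3′ on the strand of the gene, with matches to 7 transcription factor motifs in capitals, of which only an E-box (CACGTG) was found. The windows are chr12:49454578-49454777 for KMT2D (minus strand), chr16:3930715-3930914 for CREBBP (minus), chr22:41488396-41488595 for EP300 (plus), chr19:11071408-11071607 for SMARCA4 (plus) and chr3:47205604-47205803 for SETD2 (minus).
KMT2D upstream: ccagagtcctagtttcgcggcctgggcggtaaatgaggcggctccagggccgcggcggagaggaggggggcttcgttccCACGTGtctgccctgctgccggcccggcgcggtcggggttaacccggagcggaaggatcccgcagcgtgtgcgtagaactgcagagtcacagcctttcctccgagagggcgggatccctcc
CREBBP upstream: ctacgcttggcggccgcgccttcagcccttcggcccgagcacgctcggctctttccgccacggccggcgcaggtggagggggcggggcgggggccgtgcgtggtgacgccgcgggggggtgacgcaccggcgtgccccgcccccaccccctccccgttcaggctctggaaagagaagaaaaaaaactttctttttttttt
EP300 upstream: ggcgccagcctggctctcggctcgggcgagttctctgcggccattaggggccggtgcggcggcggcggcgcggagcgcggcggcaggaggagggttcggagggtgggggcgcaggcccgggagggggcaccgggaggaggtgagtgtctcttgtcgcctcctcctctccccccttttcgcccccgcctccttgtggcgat
SMARCA4 upstream: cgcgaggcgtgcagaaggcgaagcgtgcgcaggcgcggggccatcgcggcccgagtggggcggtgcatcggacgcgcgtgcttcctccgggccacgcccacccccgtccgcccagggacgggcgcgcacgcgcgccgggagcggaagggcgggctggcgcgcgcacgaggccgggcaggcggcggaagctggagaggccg
SETD2 upstream: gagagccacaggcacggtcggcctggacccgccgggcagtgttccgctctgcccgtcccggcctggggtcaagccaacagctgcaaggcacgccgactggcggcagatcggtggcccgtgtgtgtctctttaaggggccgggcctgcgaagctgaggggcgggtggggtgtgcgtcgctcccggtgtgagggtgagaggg
All 5 windows are rich in G and C, above the medians of 62.5% GC and 13 CpG dinucleotides over the same window at all 20098 coding genes. Their GC content was 69.0% for KMT2D, 69.0% for CREBBP, 75.0% for EP300, 80.5% for SMARCA4 and 71.0% for SETD2, and they held 21, 24, 23, 37 and 18 CpG dinucleotides, respectively. The single capitalised match, an E-box, begins at position 80 of the KMT2D window, and 6.6% of the windows of all coding genes hold one. The EP300 window also overlaps the small RNA gene MIR1281, and the SETD2 window overlaps an exon of the antisense gene KIF9-AS1.

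Of the 25 regions, 22 were increased in 1 or more list, 3 were decreased, and 0 were listed in both directions. In VAL, 9 increased regions lay at the genes at 3 h and 18 at 8 h, against 0 and 3 decreased regions. In OCI-LY3, 3 increased regions were listed at 3 h and 11 at 8 h, against 0 decreased regions at either time. Increased regions therefore outnumbered decreased ones at these genes in all 4 comparisons, as the plot of regions by gene shows. Over all regions listed for VAL cells the increased share was 66.5% after 3 h and 54.6% after 8 h of treatment, and for OCI-LY3 cells it was 52.5% and 55.8%. The 10 genes had 9 of 9 and 18 of 21 (85.7%) regions increased in VAL, and 3 of 3 and 11 of 11 in OCI-LY3.

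**Figure D1:**
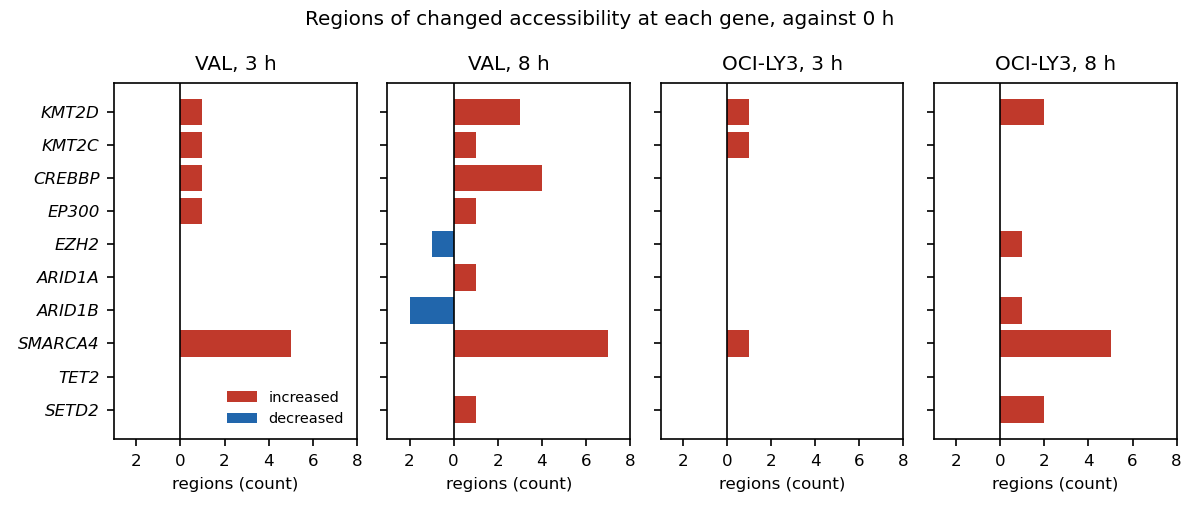
Number of listed regions at each of the 10 genes (horizontal axis, count) in the 4 comparisons with 0 h, with increased regions drawn to the right and decreased regions to the left of 0. SMARCA4 has the longest bars, with 7 increased regions for VAL and 5 for OCI-LY3 at 8 h, decreased regions appear only at EZH2 and ARID1B in VAL at 8 h, and TET2 is empty throughout.

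The lists differ in size, and the genes' share of each list was small in all of them. The 9 increased regions of VAL at 3 h were 0.254% of a list of 3545, and the 18 of VAL at 8 h were 0.162% of 11121. The 3 increased regions of OCI-LY3 at 3 h were 0.162% of 1852, and the 11 at 8 h were 0.252% of 4367. The 3 decreased regions of VAL at 8 h were 0.0324% of 9260, and the other decreased lists, of 1786 regions (VAL, 3 h), 1677 (OCI-LY3, 3 h) and 3463 (OCI-LY3, 8 h), held none at these genes.

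Counted by gene, 5 of the 10 had an increased region in VAL at 3 h, where 15.3% of all 20098 protein-coding genes had one by the same rule. Long genes offer more room for a region, so the same percentage is also given for the 7746 coding genes at least as long as KMT2D, the shortest of the 10 at 41.8 kb, and here it was 13.2%. In VAL at 8 h, 7 of the 10 genes had an increased region, against 34.7% of all coding genes and 33.8% of the long ones. The 5 genes at 3 h were KMT2D, KMT2C, CREBBP, EP300 and SMARCA4, and the 8 h list had these and ARID1A and SETD2. In OCI-LY3, 3 of the 10 genes had an increased region at 3 h (KMT2D, KMT2C and SMARCA4), against 9.37% of all coding genes and 8.93% of the long ones. At 8 h the number was 5 (KMT2D, EZH2, ARID1B, SMARCA4 and SETD2), against 17.1% and 17.7%. The gene counts were thus above the genome-wide percentage in each of the 4 increased lists, on a base of only 10 genes.

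Decreased regions were found at few of the genes. In VAL at 8 h, 2 of the 10 genes (EZH2 and ARID1B) had a decreased region, where 13.2% of all coding genes and 26.7% of the long ones had one. None of the 10 had one in the VAL list for 3 h, which had a region at 4.24% of all coding genes and 8.71% of the long ones. The OCI-LY3 lists also had none at the 10 genes, beside 4.68% and 8.97% of coding genes for 3 h and 7.43% and 15.3% for 8 h. With 10 genes, percentages of this size leave little room to see a lower count.

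Regions within 1 kb of a TSS were counted separately as promoter regions. In VAL, 4 of the 10 genes had an increased promoter region at 3 h (KMT2D, CREBBP, EP300 and SMARCA4), against 10.3% of all coding genes, and 5 had one at 8 h, with SETD2 added, against 25.2%. CREBBP, EP300 and SMARCA4 lie on chromosomes 16, 22 and 19, where an increased promoter region was found at 26.9%, 34.2% and 25.8% of coding genes at 3 h and at 50.1%, 63.6% and 50.1% at 8 h. Without these genes, 1 of 7 had one at 3 h and 2 of 7 at 8 h, near the genome-wide percentages. Those percentages still count the coding genes of these chromosomes. In OCI-LY3, 1 of the 10 genes had one at 3 h (KMT2D), against 5.94%, and 3 of the 10 at 8 h (KMT2D, SMARCA4 and SETD2), against 9.33%. Without the same 3 genes, 1 of 7 had one at 3 h and 2 of 7 at 8 h in these cells. No decreased region lay within 1 kb of a TSS of the 10 genes in any list, where the percentage over all coding genes was 0.323% (3 h) and 3.39% (8 h) for VAL cells and 0.697% (3 h) and 1.29% (8 h) for OCI-LY3 cells.

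**Figure D2:**
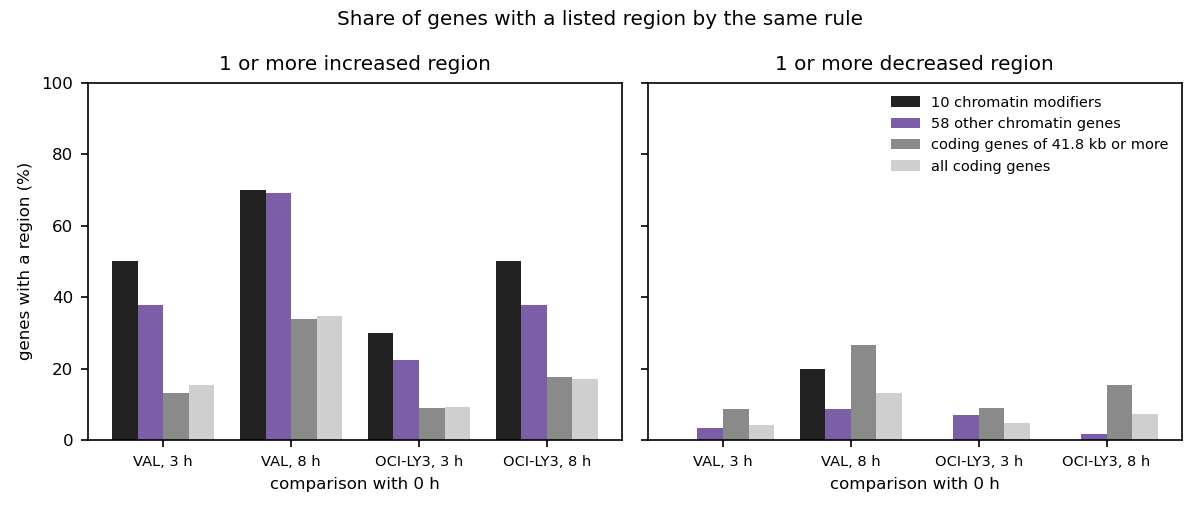
Percent of genes (vertical axis) with 1 or more increased (left) or decreased (right) region by the same rule, for the 10 chromatin modifiers, 58 other chromatin genes, coding genes of 41.8 kb or more and all coding genes. The 10 genes and the 58 other chromatin genes stand above both coding-gene bars in each increased list, and a bar for decreased regions at the 10 genes is present only in VAL at 8 h.

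The H3K4 methyltransferase gene KMT2D (chr12:49412758-49454577, minus strand) had 3 regions, all increased, in 41.8 kb, or 7.17 per 100 kb. Its promoter region, chr12:49453138-49455085, covered the TSS and exon 1 and was increased in all 4 lists. Only one other of the 25 regions, in SMARCA4, was in all 4. A further region, 16.8 kb into the gene at chr12:49437246-49438317, overlapped 4 exons, from exon 21 to exon 24 of 55, and was increased at 8 h in both lines. The third, chr12:49411803-49413962, overlapped the last exon but also covered the TSS of the neighbouring gene PRKAG1, which encodes a subunit of the energy sensor AMPK. It was increased in VAL at 8 h only, and from position alone it cannot be assigned to KMT2D rather than to PRKAG1. The other 2 regions alone come to 4.78 per 100 kb.

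The paralogue KMT2C (chr7:151832007-152133729, minus strand) is far longer, at 301.7 kb, and had 2 regions, or 0.66 per 100 kb. Neither lay at its promoter, and no line had both. In VAL the region chr7:152100163-152100773, in intron 1 and 32.6 kb from the canonical TSS, was increased at 3 h and at 8 h. In OCI-LY3 the region chr7:152037903-152040159, in intron 2 and 94.1 kb from the TSS, was increased at 3 h and absent from the 8 h list. KMT2C has near-identical copies elsewhere in the genome, and the authors discarded reads that aligned to several places. When KMT2C was cut into 301 tiles of 1 kb, 114 had a copy elsewhere that covered 50% or more of the tile at 90% identity or more, and reads from such stretches may have been among those discarded. None of the 25 listed regions had such a copy (0 of 25). This measure does not describe shorter or more diverged repeats inside a region, so it does not show that a region is free of repeats.

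The acetyltransferase genes CREBBP and EP300 were listed in VAL and not in OCI-LY3. CREBBP (chr16:3775055-3930714, minus strand) had 4 regions in 155.7 kb, all increased in VAL at 8 h. Its promoter region, chr16:3929539-3931470, was also increased in VAL at 3 h, and with a GC content of 75.7% it was the most GC-rich of the 25. The other 3 were not in the 3 h list. They lay in intron 1 (chr16:3909962-3911109, 20.2 kb from the TSS), in intron 5 (chr16:3837517-3838461, 92.7 kb) and over exon 16 (chr16:3817178-3818111, 113.1 kb). The intron 5 and exon 16 regions are nearer to the TSS of TRAP1, which encodes a mitochondrial chaperone, at 69992 and 49653 bp, than to that of CREBBP.

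EP300 (chr22:41488596-41576081, plus strand) had 1 region, its promoter at chr22:41487192-41489124, increased in VAL at both times. The start of MIR1281 lies within 1 kb of it. Both acetyltransferase promoters thus followed one pattern in VAL, and neither was in the OCI-LY3 lists, although whether the lines differ at these sites could not be tested without values per library.

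EZH2 (chr7:148504349-148581413, minus strand), which encodes the catalytic subunit of Polycomb repressive complex 2, was the gene where the lines showed opposite calls at neighbouring regions. In VAL, chr7:148564704-148565752 was decreased at 8 h. In OCI-LY3, chr7:148561273-148563150 was increased at 8 h. Both lie in intron 1, at 16.2 and 19.2 kb from the canonical TSS, and 1553 bp separate them. They are different regions, each listed in one line, so no single site was seen to move in opposite directions.

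Among the SWI/SNF genes, SMARCA4 (chr19:11071608-11190102, plus strand), which encodes the ATPase BRG1, had the most regions of the 10 genes, with 7 in 118.5 kb (5.91 per 100 kb), all increased. In VAL, 5 were listed at 3 h and all 7 at 8 h. In OCI-LY3, 1 was listed at 3 h and 5 at 8 h. The region in all 4 lists was not the promoter but one in intron 1, chr19:11078719-11079891, centred 7.6 kb past the TSS. Its GC content was 51.8%, against 70.0% for the promoter region.

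The SMARCA4 promoter region itself, chr19:11070937-11072477, was increased in VAL at both times and in OCI-LY3 at 8 h. The same lists held 2 of the distal regions, at 74.8 kb in intron 29 (chr19:11145875-11147108) and at 88.2 kb in intron 30 (chr19:11159109-11160794). A further intron 1 region at 16.3 kb (chr19:11087503-11088490) was increased in VAL at both times and was not in the OCI-LY3 lists. The region at 85.5 kb (chr19:11156845-11157595) was increased at 8 h in both lines, and that at 71.4 kb (chr19:11142891-11143309), the narrowest of the 25 at 419 bp, in VAL at 8 h only. Just outside the rule, a region 6.1 kb upstream of a SMARCA4 TSS (chr19:11064156-11065482) was increased at 8 h in both lines.

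ARID1A (chr1:27019727-27108595, plus strand) and ARID1B (chr6:157097154-157531913, plus strand) encode alternative subunits that guide the SWI/SNF complex, and they were listed differently. ARID1A had a single region, in intron 1 and 10.7 kb from the canonical TSS (chr1:27032571-27033858), increased in VAL at 8 h. ARID1B, the longest of the genes at 434.8 kb, had 3 regions, none in more than 1 list. In VAL at 8 h, 2 regions of intron 4 were decreased, chr6:157375620-157376110 at 277.4 kb and chr6:157400439-157401294 at 302.4 kb, and the latter lies 4612 bp from an internal ARID1B TSS. In OCI-LY3 at 8 h, the region chr6:157253983-157255026 in intron 3, at 156.0 kb, was increased. ARID1B and EZH2 were thus the genes with a decreased region in VAL and an increased one in OCI-LY3, at different positions.

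SETD2 (chr3:47057918-47205603, minus strand), the H3K36 methyltransferase gene, had 2 regions, at its opposite ends. The promoter region, chr3:47204659-47206382, was increased at 8 h in both lines and was not in the 3 h lists. A start of KIF9-AS1 lies within 1 kb of it. The other region, chr3:47058249-47059111, overlapped the last exon, exon 21, 146.9 kb from the TSS, and was increased in OCI-LY3 at 8 h only. Its nearest coding TSS is that of NBEAL2, 28769 bp away. TET2 (chr4:106067032-106200973, plus strand), which oxidises 5-methylcytosine, had 0 regions in its 133.9 kb or within 5 kb of its start sites in any of the 8 lists.

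**Figure D3:**
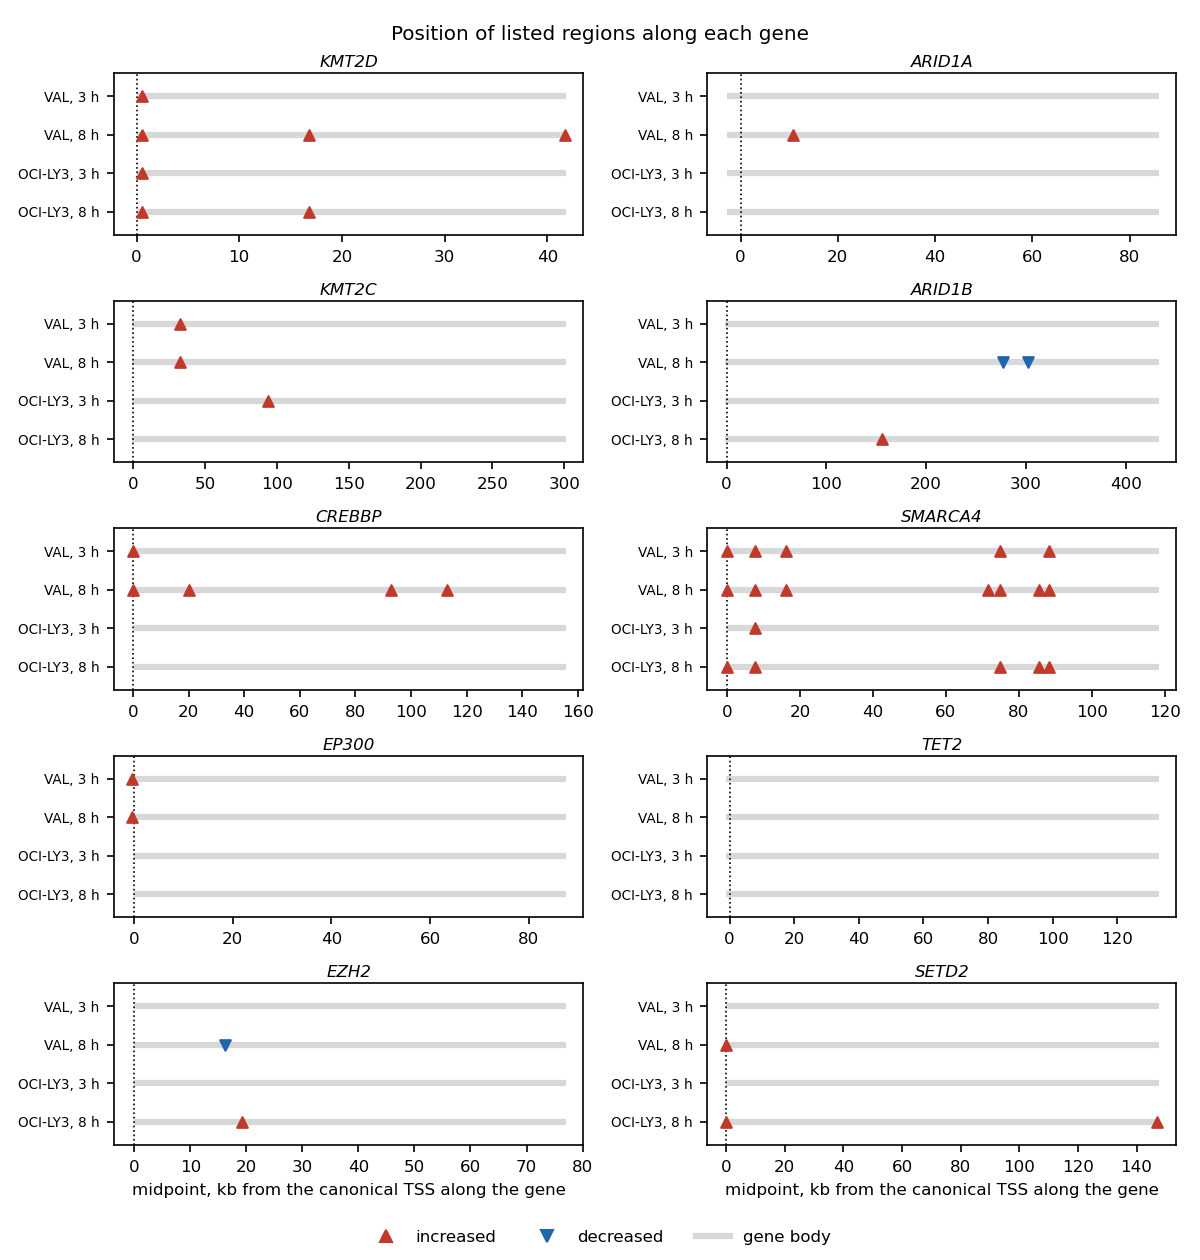
Midpoint of each listed region along its gene (horizontal axis, kb from the canonical TSS, dotted line, in the direction of transcription) in the 4 comparisons, with upward triangles for increased and downward triangles for decreased regions and the gene body in grey. Regions at the dotted line are seen at KMT2D, CREBBP, EP300, SMARCA4 and SETD2, and the 3 decreased regions, at EZH2 and ARID1B, all lie inside the gene.

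The rule admits a region farther than 5 kb from a TSS only inside the gene body, and long genes hold more of these. Of the 22 increased regions, 5 (22.7%) covered a TSS of the gene and 17 (77.3%) lay farther than 5 kb from every one. Over all pairs of an increased region and a coding gene of 41.8 kb or more, 30.2% covered a TSS and 61.3% lay farther than 5 kb. Of the 3 decreased regions, 0 covered a TSS and 1 lay within 5 kb of one, where 9.2% and 6.41% of the pairs at coding genes of that length did. Exons of the canonical transcript were overlapped by 9 of the 22 increased and by 0 of the 3 decreased regions. The increased regions that covered no TSS numbered 5 in VAL at 3 h and 13 at 8 h, while those that covered one numbered 4 and 5. In OCI-LY3 the regions without a TSS numbered 2 at 3 h and 8 at 8 h, beside 1 and 3 with one. For 14 of the 22 increased regions the nearest coding TSS belonged to the gene itself.

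The lines have separate 0 h libraries, and their lists could be compared by position. At 8 h, 8 regions at the 10 genes were listed at identical coordinates and in the same direction in both lines, all increased. They were 72.7% of the 11 regions of OCI-LY3 and 38.1% of the 21 of VAL. Over all listed regions, increased and decreased together, the shared ones were 43.7% of the OCI-LY3 list and 16.8% of the VAL list. The 11 regions of OCI-LY3 were all increased, and the percentage for increased regions alone was not computed. By gene, 1876 coding genes had an increased promoter region in OCI-LY3 at 8 h, and 1511 had one in both lines. At 3 h, 2 regions were shared, at KMT2D and SMARCA4, or 66.7% of the 3 in OCI-LY3 and 22.2% of the 9 in VAL. Over all regions of both directions, 28.5% and 18.9% were shared at 3 h. Of the 8 regions shared at 8 h, 5 were at SMARCA4, 2 at KMT2D and 1 at SETD2. At 8 h, 13 regions were in the VAL lists only and 3 in the OCI-LY3 lists only. The larger VAL lists go with the larger VAL count, and the part of list size in this was not tested.

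Position on a chromosome moved with these calls. Of the 25 regions, 12 lay on chromosomes 16, 19 and 22, where most listed regions were increased in VAL at both times and in OCI-LY3 at 8 h. In VAL at 8 h the increased share of all listed regions was 99.4% on chromosome 19 (SMARCA4), 99.6% on chromosome 22 (EP300) and 96.9% on chromosome 16 (CREBBP). In OCI-LY3 at 8 h it was 98.7%, 89.7% and 93.6%. In the smaller 3 h lists of OCI-LY3 it was 97.2% and 86.9% on chromosomes 19 and 16 but 45.9% on chromosome 22. Such regions were also common there, since in VAL at 8 h 61.0%, 76.4% and 61.8% of the coding genes of chromosomes 19, 22 and 16 had an increased region, against the 34.7% of all coding genes. A region with an increased call at SMARCA4, EP300 or CREBBP therefore had the direction of almost every listed region of its chromosome, and the part of this regional difference in the genes' calls was not tested.

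The remaining genes lie on chromosomes of mixed direction. In VAL at 8 h the increased share was 62.8% on chromosome 1 (ARID1A), 59.4% on chromosome 12 (KMT2D), 37.4% on chromosome 7 (EZH2 and KMT2C), 34.2% on chromosome 6 (ARID1B), 28.2% on chromosome 3 (SETD2) and 15.8% on chromosome 4 (TET2), where 12.4% of coding genes had an increased and 34.6% a decreased region. The decreased regions of EZH2 and ARID1B in VAL were thus on chromosomes where most listed regions were decreased. The increased regions of SETD2 and KMT2C ran against the majority of listed regions on theirs. In OCI-LY3 at 8 h the share was 59.1%, 46.2%, 47.6%, 44.1%, 47.8% and 25.6% in the same order. Counted by coding gene in VAL at 8 h, 22.7% had an increased and 21.5% a decreased region on chromosome 3. These were 25.5% and 22.6% on chromosome 7, and 28.6% and 22.7% on chromosome 6. The majority on these chromosomes thus depended on whether regions or genes were counted. Without SMARCA4, which holds 7 of the 25 regions (28.0%), the increased regions at the genes numbered 4 (3 h) and 11 (8 h) for VAL cells and 2 (3 h) and 6 (8 h) for OCI-LY3 cells. Without all 3 genes of chromosomes 16, 19 and 22, they numbered 2, 6, 2 and 6, and 2 of the 7 genes left had an increased region in VAL at 3 h and 4 of the 7 at 8 h, beside the 15.3% and 34.7% of all coding genes. For OCI-LY3 these were 2 of 7 and 4 of 7, beside 9.37% and 17.1%. The percentages of all coding genes still count those of chromosomes 16, 19 and 22.

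**Figure D4:**
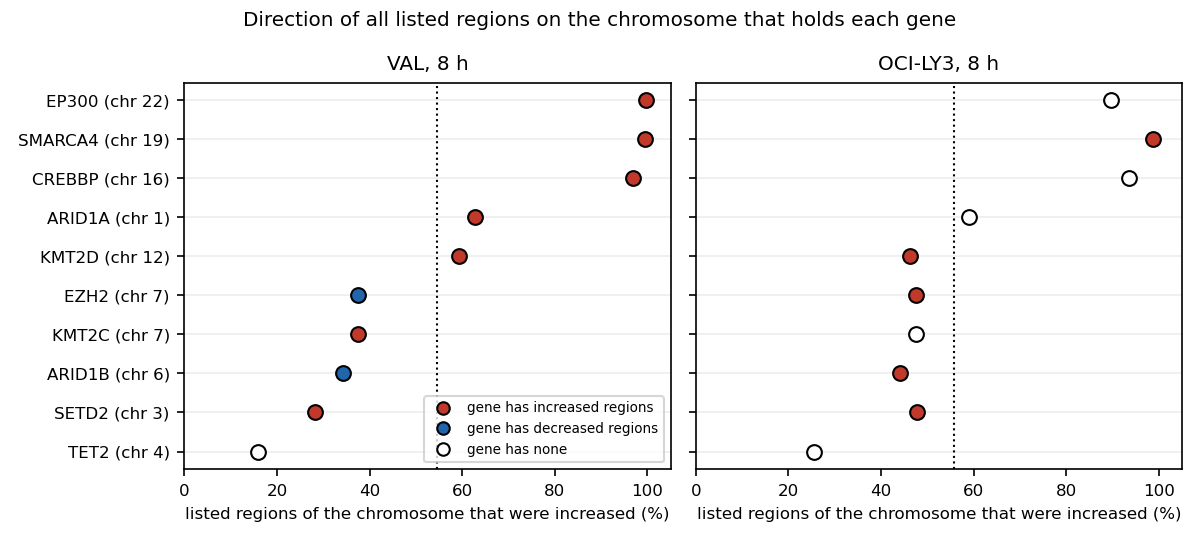
Percent of all listed regions that were increased (horizontal axis) on the chromosome that holds each of the 10 genes, at 8 h in VAL (left) and OCI-LY3 (right), with points filled red where the gene had increased regions, blue where it had decreased regions and left open where it had none, and the genome-wide percent as a dotted line. The chromosomes of EP300, SMARCA4 and CREBBP stand at 89.7% or higher in both lines, and that of TET2, which had no region, has the lowest share of the 9 chromosomes shown, 15.8% and 25.6%.

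GC content separated the promoters from the rest. The median GC content of the 22 increased regions was 52.7%, with a middle range from 45.5% to 57.5%, and that of the 3 decreased regions was 42.4%. All increased regions of the series had a median of 56.2%, and all decreased regions one of 41.4%. The 5 regions over a TSS had 75.7% (CREBBP), 72.3% (SETD2), 70.0% (EP300), 70.0% (SMARCA4) and 67.4% (KMT2D), above each of the other 17 increased regions. Some increased regions away from promoters had a GC content near that of decreased regions, among them both of KMT2C at 43.7% and 35.7%, that of EZH2 at 41.0% and that of ARID1B at 39.8%. The median width was 1203 bp for the increased regions of the genes and 1320 bp for all increased regions.

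**Figure D5:**
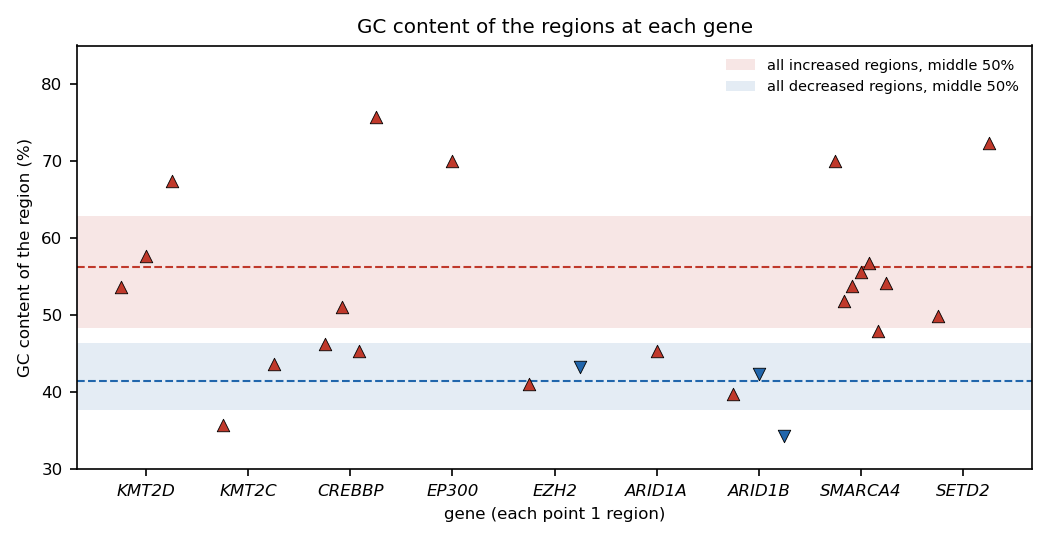
GC content (vertical axis, percent) of each of the 25 regions by gene, with upward triangles for increased and downward triangles for decreased regions, and the median (dashed) and middle 50% (band) of all increased and all decreased regions of the series. The 5 promoter regions lie at 67.4% or higher, above the band of all increased regions (48.3% to 62.8%), and regions of KMT2C, CREBBP, EZH2, ARID1A, ARID1B and SMARCA4 lie below it.

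Short motifs were searched on both strands in the central 200 bp of every region, without mismatches except for CTCF, for which 1 was allowed. Matches were rare at the 10 genes. An AP-1 motif (TGANTCA) was found in 2 of the 22 increased regions, at SMARCA4 (74.8 kb) and SETD2 (146.9 kb), where 4.21% of all increased and 7.78% of all decreased regions had one. An E-box (CACGTG) was found in 2 of the 22, at KMT2C (94.1 kb) and ARID1B (156.0 kb), against 4.85% and 2.31%. No increased region of the genes matched the ETS motif CCGGAAGT (1.98% of all increased regions), the CRE motif TGACGTCA (0.636%), the SPI motif GAGGAAGT (1.89%), the NFkB motif GGGANTTCC (1.52%) or CTCF (2.73%). The 3 decreased regions had no match to any of the 7 motifs in the central 200 bp. Over their whole length all 3 had one, with AP-1 in 2 (EZH2 and ARID1B), the E-box in 2 (both ARID1B) and SPI in 1 (ARID1B), where 37.3%, 13.2% and 14.5% of all decreased regions had one. The letters of the ETS and SPI motifs overlap in part, and a match describes the letters only.

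A list of 58 other chromatin genes, grouped by role and counted by the same rule, was set beside the 10. Of these, 22 (37.9%) had an increased region in VAL at 3 h and 40 (69.0%) at 8 h. In OCI-LY3, 13 (22.4%) had one at 3 h and 22 (37.9%) at 8 h. Decreased regions were found at 2 (3.45%) and 5 (8.62%) of them in VAL and at 4 (6.9%) and 1 (1.72%) in OCI-LY3. More of the 58 genes held an increased than a decreased region in each comparison, which was also so for all coding genes (15.3% against 4.24% and 34.7% against 13.2% for VAL, 9.37% against 4.68% and 17.1% against 7.43% for OCI-LY3).

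By role, the genes with an increased region in VAL at 8 h were 7 of 11 in H3K4 methyltransferase complexes, 5 of 7 histone acetyltransferases, 5 of 7 for PRC2 and H3K27 methylation, 11 of 16 SWI/SNF subunits, 3 of 5 for DNA methylation and its oxidation, 6 of 6 for H3K36 methylation and 3 of 6 in histone deacetylase complexes, where 34.7% of all coding genes had one. In OCI-LY3 at 8 h these were 4, 1, 1, 5, 4, 4 and 3 in the same order, where 17.1% of all coding genes had one. The groups are small, and counts such as 1 of 7 lie near that percentage. An increased promoter region at 8 h in both lines was found at 12 of the 58 genes, against 7.52% of all coding genes, and at 3 of the 10 (KMT2D, SMARCA4 and SETD2). They were the SWI/SNF genes SMARCC1, PBRM1, DPF2 and BCL7A, the genes ASH1L, NSD3 and KDM2A, which write or remove H3K36 methylation, the H3K4 methyltransferase genes SETD1A and KMT2B, the acetyltransferase gene KAT8, the DNA methyltransferase gene DNMT1, and TET3, a paralogue of TET2. Of these, DPF2, KDM2A, BCL7A and SETD1A had an increased promoter region in all 4 lists, as KMT2D did among the 10 and 2.85% of all coding genes did. The chromosomes that hold the 58 genes were not taken into account in these counts.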

How the data were processed

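Per the study's methods and the submitters' processing notes, ATAC-seq reads of the 24 libraries were aligned to hg19 with Bowtie2, mitochondrial, multiply aligned and duplicate reads were removed, peaks were called per sample with MACS2 and merged, reads were counted with bedtools, and each time was compared with 0 h in each line with DESeq2. The deposited files hold 3 columns (chromosome, start, end) and no count, fold change, p-value or score from the authors, so depth is unknown and replicates could not be compared. The adjusted p threshold behind the lists is stated differently in different places of the study and cannot be read from the files, so which one a listed region passed is not known.

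Regions were matched to GENCODE release 44 mapped to GRCh37, using TSS of transcripts tagged basic, the gene body and a window of 5 kb. No listed region ran beyond the reference chromosomes. The background counted 20098 protein-coding genes by the same rule. GC content, motifs and sequences were read from GRCh37 with pysam 0.24.0, copies were sought with minimap2 2.31, and tables and figures were made with pandas 2.3.3 and matplotlib 3.10.9 in Python 3.11.15. Scripts were tested on simulated data. The 10 genes, the list of 58 other chromatin genes and the motifs were chosen with earlier results of these data known. The genes named in the text were the 10 with all their regions and, of the 58, those with a promoter region called in the same direction in both lines at 8 h. Neighbouring genes were named as the nearest coding TSS. Alternatives varied the window, the transcripts, the overlap, the genes included and the motif search. Values in the supplementary tables of the study were not used here. Some items are not reported here.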

Additional observations from a re-analysis of the deposited data

How the results depend on the processing

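Of 283 alternative values, 28 moved, for a count by more than 1.5 times. Of the 255 others, 107 were 0 in both and say nothing of stability, and 148 were above 0. The direction of a region is fixed by the authors' lists and could not change. Counting only the window around the TSS, without gene bodies, the increased regions numbered 4 (3 h) and 5 (8 h) for VAL cells and 1 (3 h) and 3 (8 h) for OCI-LY3 cells. The OCI-LY3 genes with an increased region then numbered 1 (3 h) and 3 (8 h), and 1 decreased region at 1 gene was left in VAL at 8 h. Keeping only regions whose nearest coding TSS was that of one of the 10 genes left 11 increased regions for VAL and 7 for OCI-LY3 at 8 h. Without ARID1B, the longest gene, 1 decreased region at 1 gene (EZH2) was left in VAL at 8 h.

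Leaving out genes was in part chosen after seeing the data. Without SMARCA4 the increased regions numbered 4 (3 h) and 11 (8 h) for VAL cells and 6 for OCI-LY3 cells (8 h). Without CREBBP, EP300 and SMARCA4 they numbered 2, 6 and 6, and the genes with an increased region in VAL numbered 2 of 7 at 3 h and 4 of 7 at 8 h, and those with an increased promoter region 1 of 7 and 2 of 7. Searching motifs over whole regions in place of the central 200 bp gave matches in 8 of the 22 increased regions for AP-1 (24.5% of all increased regions), 5 for the E-box (24.4%), 2 for NFkB (7.54%), 1 for SPI (10.3%) and 1 for CTCF (12.4%), and allowing CTCF 2 mismatches gave 2.

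The lists carry positions only. A stricter threshold and leaving out each replicate were not run, since the lists hold no scores and no values per library. No paired analysis was possible because the files hold no values per library and the results come from no test. A missing region cannot be read as unchanged accessibility, and the standard and Fast-ATAC libraries could not be compared.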

Other observations

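Some listed regions lay within 50 kb of a TSS of these genes but outside the rule. TET2, which had none within the rule, had a region 31.1 kb away (chr4:106034624-106035918) that was decreased in VAL at 8 h. ARID1B had one 33.5 kb away (chr6:157062642-157063692), also decreased in VAL at 8 h, which adds to its 2 decreased regions inside the gene. Around SMARCA4, regions at 18.1 kb and 23.9 kb were increased in VAL at 8 h, both with the TSS of TIMM29 as their nearest coding TSS (13329 and 7635 bp), and one at 31.2 kb, over the TSS of YIPF2, was increased in all 4 lists.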
